A study of Homo sapiens with 8 samples.

Results

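The comparison set the RNA sites recovered with polypyrimidine tract binding protein (PTB) after UVC crosslinking against those recovered with the same protein when no UV was applied. All peaks of both lists were used. Peaks within 20 nt of each other on a strand were merged into sites, which gave 80531 UVC sites and 2341 no-UV sites, together 82872 of the 206508 sites in the 5 lists of the series. Both groups were 293T cells, a line of human embryonic kidney origin, with the genotype Halo-PTB transgenetic, grown with puromycin. The UVC group and the no-UV group had 2 samples each of the 8 in the series, and both carried the Halo-PTB transgene, so they differed by label in the UV step only. The sources used here give neither the promoter and level of the transgene nor the UVC dose, and do not say whether a line was a single clone. Each group was deposited as 1 list without replicate names, so no spread between samples exists for any value below, no test was possible, and intervals cover counting error only. The lists hold no read numbers, so the depth per sample is unknown. A site missing from a list therefore cannot be told apart from a site that had too few reads there.

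PTB is an RNA-binding protein with RNA recognition motifs that contact short pyrimidine-rich stretches, and it is known mainly as a repressor of alternative exons. UVC light forms covalent bonds between RNA bases and amino acids that touch them, which is the basis of crosslinking and immunoprecipitation (CLIP). HaloTag is an enzyme-derived tag that bonds covalently to a ligand on beads. In a sample without UV, RNA can reach the library only by staying with the protein, its partners or the beads without a UV-made bond. No-UV libraries are for that reason used as a background control. Regions are given by hg19 position and strand only, and windows of 100 kb on a strand stand in for transcripts, since no hg19 gene annotation was used here.

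The UVC list held 34.4 times as many sites as the no-UV list. It covered 3624.78 kb from 118434 deposited peaks, against 115.686 kb from 3809 peaks without UV. Each peak carries a score given by the authors, about 10 times the negative log10 of its p-value, which was taken as limited to 1000. The median site score was 21 with UVC and 17 without UV. The upper ends lay further apart: 60 UVC sites were at the limit, whereas the highest no-UV site scored 881.

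Most sites of either list had no counterpart in the other. Of 80531 UVC sites, 417 overlapped a no-UV site by at least 1 nt on the same strand, which is 0.518% (exact Clopper-Pearson 95% interval 0.469 to 0.570). The other 80114, or 99.5%, were found with UVC only. List length largely fixed that share, with 2.91 no-UV sites per 100 UVC sites, so it is not the share that needs UVC. With UVC cut to its 2341 highest-scoring sites, 9.06% lay on a no-UV site. Seen from the shorter list, 415 of 2341 no-UV sites lay on a UVC site, which is 17.7% (16.2 to 19.3), and 1926, or 82.3%, were found without UV only. On the opposite strand, 2 of the 2341 no-UV sites overlapped a UVC site.

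Where the lists met, the UVC site was usually the wider one. Over all sites this did not hold: median widths were 49 nt with UVC and 50 nt without UV. Shared sites also scored higher with UVC, at a median of 80 against 22 without UV. Widths in the pairs were not compared at matched scores. The shared sites formed 421 overlapping pairs with a median of 42 nt in common. UVC was wider in 278 pairs (66.03%) and enclosed the whole no-UV site in 147 (34.9%), against 41 pairs (9.74%) in which the no-UV site enclosed the UVC site. The pairs seldom had the same borders: 5′ ends lay within 5 nt in 108 pairs (25.7%), 3′ ends in 96 (22.8%), and start and end were both identical in 5.

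Recovery without UV rose with the score of the UVC site. Among UVC sites scoring up to 16, 52 of 31805 lay on a no-UV site (0.163%). This share was 0.222% at scores of 21 to 30 and 1.65% at 51 to 100. It went on to 6.11% above 100 and up to 200, 16.2% up to 500 and 30.6% above 500 but under the limit (22 of 72). At the limit it was 80.0%, or 48 of 60 sites (67.7 to 89.2). The highest-scoring UVC sites were thus mostly also listed without UV. The no-UV list showed a similar rise: 13.8% of its sites scoring up to 16 lay on a UVC site, 26.4% at 31 to 50, 51.9% at 51 to 100 (28 of 54), 8 of 17 above 100 and up to 200, and 9 of 9 above 200.

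**Figure D1:**
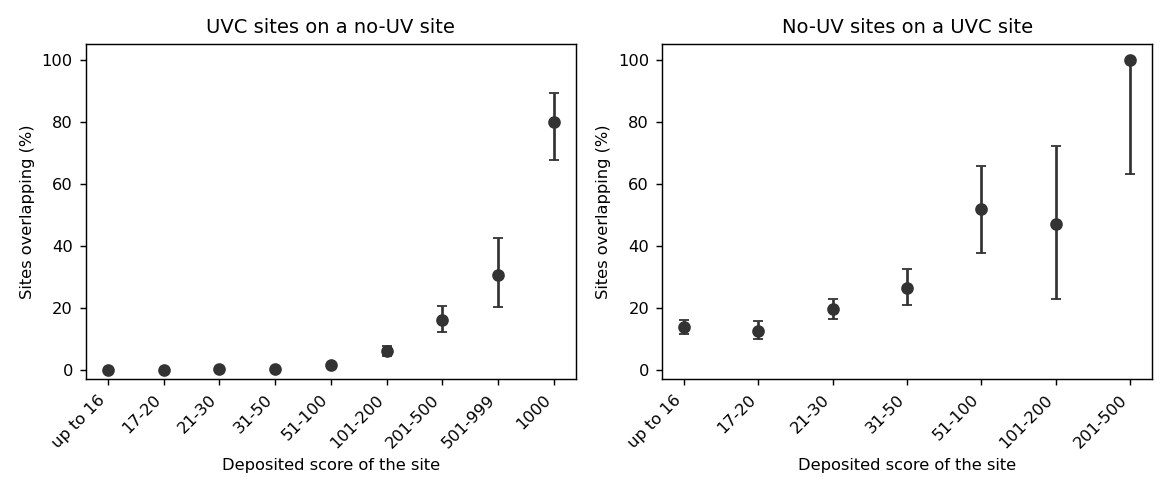
Share of UVC sites on a no-UV site (left) and of no-UV sites on a UVC site (right), in percent, by band of deposited score. Points are shares of the sites in a band and bars are exact 95% intervals for counting error; the left share goes from 0.163% in the lowest band to 80.0% at the score limit.

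At the score limit, 12 UVC sites were absent from the no-UV list. The widest was chrX:107964682-107964893 on the minus strand, 212 nt wide, which lay 589 nt from the nearest no-UV site and overlapped sites of both the UVA-crosslinked PTB list and the published PTB iCLIP list. The plus-strand site chr11:65200952-65201058 and the plus-strand site chrX:118557775-118557827 also overlapped both of those lists, as did chr1:45196770-45196818 on the minus strand. The site chr4:20308808-20308870 on the plus strand overlapped iCLIP, and chr17:37360869-37360972 (plus) and chr22:36234309-36234364 (minus) overlapped UVA. The plus-strand site chr10:88649357-88649401 overlapped none of the other lists. The remaining 4 overlapped a site of the second control in the series, a Halo-tagged YFP (yellow fluorescent protein) that also received UVC: chr12:7076539-7076679, chr20:37055984-37056088 and chr1:28906928-28907025 on the minus strand and chr20:2635727-2635809 on the plus strand. Thus 8 of the 12 were in neither control list.

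Of the 48 limit-scoring UVC sites that were recovered without UV, 37 also lay on a YFP site (77.1%, 62.7 to 88.0), against 4 of the 12 above (33.3%, 9.92 to 65.1), with intervals that overlap. UVA listed 41 of them and iCLIP 23. The widest was chrX:73047086-73047434 on the minus strand, at 349 nt. It was followed on the plus strand by chr1:28833877-28834071 (195 nt) and chr1:28835070-28835253 (184 nt), and on the minus strand by chr3:160232726-160232902 (177 nt).

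From the no-UV side, the strongest shared site was chr1:11968230-11968294 on the plus strand with a score of 881. The next were chr1:28833874-28834042 (plus, 403), chr6:52860647-52860709 (plus, 394), chr12:63244608-63244653 (minus, 321) and chr1:28835070-28835231 (plus, 303). Of these the chromosome 12 site was in none of the YFP, UVA and iCLIP lists. Of the 10 highest-scoring shared no-UV sites, 8 lay on a YFP site, 9 on a UVA site and 7 on an iCLIP site.

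Sites found without UV only scored lower at the top. The highest was chr3:173624669-173624720 on the plus strand with a score of 198, and the nearest UVC site lay 2632 nt away. Next came chr3:186534269-186534318 on the minus strand (165), which was 10128 nt from a UVC site, and chr1:24995740-24995789 on the plus strand (135). The site chr11:65622622-65622672 on the minus strand (115) was closer, at 107 nt, and overlapped UVA. Among the 26 no-UV sites above a score of 100, the 17 on a UVC site included 14 on YFP, 16 on UVA and 13 on iCLIP. The 9 not on a UVC site included 0 on YFP, 2 on UVA and 0 on iCLIP. Of those 9, 8 were 49 to 51 nt wide, against 4 of the 17.

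Sites found without UV only still lay on the strands and in the regions that carried UVC sites. Their median distance to the nearest UVC site was 2424.5 nt on the same strand and 111992 nt on the opposite strand. Within 1000 nt, 661 of 1926 (34.3%) had a UVC site on their own strand, against 13 (0.675%) on the other strand. At 5000 nt the shares were 65.2% and 3.06%. With UVC cut to its 2341 highest-scoring sites, the shares within 1000 nt were 5.84% and 0.141%. With only peaks at or above each list's median score, they were 25.4% and 0.321%. For scale, UVC sites lay a median of 1792 nt from the nearest other UVC site, and 38.2% had one within 1000 nt. YFP sites had a median distance of 1012.5 nt to UVC, and 49.7% lay within 1000 nt. In the reverse direction, UVC-only sites lay a median of 416980 nt from the nearest no-UV site on their strand. No-UV sites lay a median of 224275 nt from the nearest other no-UV site.

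**Figure D2:**
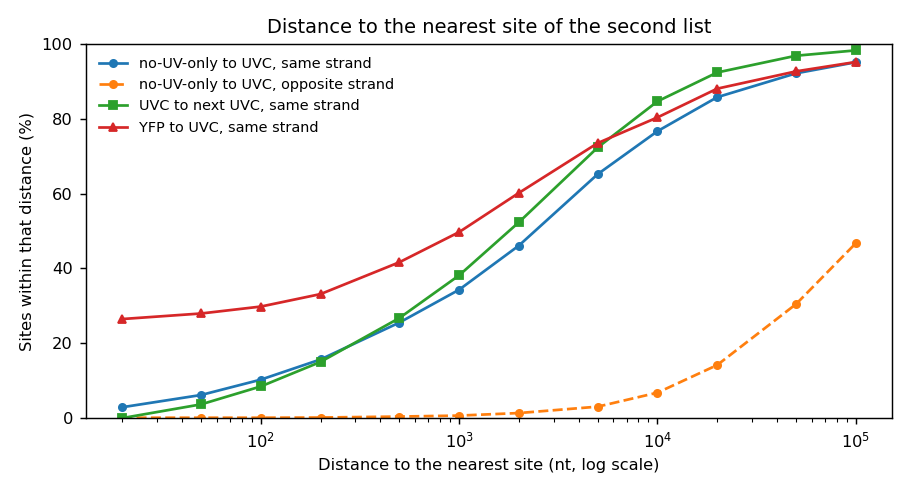
Cumulative share of sites, in percent, with the nearest site of the second list within a given distance in nt (log axis). Lines are the sites found without UV only to UVC on the same and the opposite strand, UVC sites to the next UVC site, and YFP sites to UVC; within 1000 nt the same-strand share of the no-UV-only sites is 34.3% and the opposite-strand share 0.675%.

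By region the lists met more often than by site. Of 1958 strand windows of 100 kb with a no-UV site, 1810 (92.4%) also held a UVC site. This share was 69.2% in windows of 10 kb, and 26.4% in windows of 100 kb with UVC cut to its 2341 highest-scoring sites. Of 14661 windows with a UVC site, 1810 (12.3%) held a no-UV site, where at most 1958 could. The presence of a no-UV site went up with the number of UVC sites in the window, from 4.31% at 1 UVC site to 9.49% at 3 to 4, 23.4% at 10 to 19 and 41.1% at 20 or more (145 of 353). Counted per 100 UVC sites, the no-UV sites did not follow the same order: they numbered 4.66 in windows with 1 UVC site, 2.20 at 10 to 19 and 2.91 at 20 or more. Of the 252 no-UV sites in that last group, 33 were in a single window, on chromosome X. In most cases a window held a single no-UV site (1676 of 1958), and only 49 held 3 or more.

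Of the 353 windows with at least 20 UVC sites, 208 held no no-UV site. Windows with 20 or more UVC sites held 2.91 no-UV sites per 100 UVC sites, so an absence among about 40 UVC sites lies close to that rate and does not set a window apart. The plus-strand window chrX:47000001-47100000 held 42 UVC sites and 0 no-UV sites, with 45 UVA sites, 30 iCLIP sites and 0 YFP sites. The minus-strand window chrX:53400001-53500000 held 40 UVC and 0 no-UV sites, with 28 UVA and 19 iCLIP sites. On the plus strand of chromosome 12, the window starting at 95600001 held 39 sites with UVC, 7 with UVA and 16 in iCLIP, and 0 without UV. On the minus strand of chromosome 17, the window starting at 26900001 held 34 UVC, 48 UVA, 32 iCLIP and 2 YFP sites. The one starting at 46600001 held 35, 39, 36 and 0. The minus-strand window chr1:52900001-53000000 held 37 UVC, 15 UVA, 17 iCLIP and 2 YFP sites. The minus-strand window chr21:40600001-40700000 held 37, 9, 18 and 0. Other UVC-dense windows had 1 no-UV site: chr6:97600001-97700000 on the minus strand held 52 UVC sites, the most UVC-only sites of any window, with 28 UVA and 21 iCLIP sites.

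A single region stood apart for its sites without UV. The minus-strand window chrX:73000001-73100000 held 33 no-UV sites, while the next window held 7. They spread over 30.5 kb, from 73041882 to 73072423, and their scores ran from 13 to 280 with a median of 20. UVC gave 46 sites there, scoring 113 to 1000 with a median of 284. Of the 33 no-UV sites, 17 lay on a UVC site, 20 on a UVA site, 10 on a YFP site and 5 on an iCLIP site. The window also held 31 of the 1080 YFP sites and 62 UVA sites, but 6 iCLIP sites. Its strongest no-UV site was chrX:73047176-73047287, at 280, inside the 349-nt UVC site at the score limit.

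**Figure D3:**
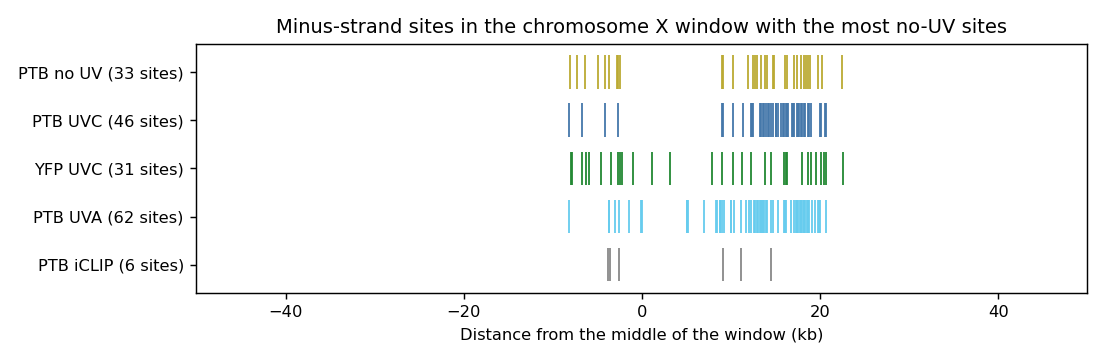
Minus-strand sites of each list in the 100 kb chromosome X window with the most no-UV sites, drawn by distance in kb from the middle of the window, 1 tick a site. The 33 no-UV and 46 UVC sites fall in the same stretches, which the 31 YFP and 62 UVA sites also occupy.

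Other regions with several no-UV sites differed in how many UVC sites they held. The plus-strand window chr11:65200001-65300000 held 7 no-UV sites scoring 15 to 29 and 44 UVC sites scoring 16 to 1000 with a median of 84. Of those 7, 3 lay on a UVC site and 5 on a UVA site. These counts join separate stretches, since no UVC or no-UV site lay between 65211335 and 65268892. The plus-strand window of chromosome 17 starting at 7400001 held 5 no-UV sites, 4 of them on a UVC site, among 34 UVC sites. It too was split, with no UVC or no-UV site between 7417716 and 7465477. In contrast, the minus-strand window chr5:106900001-107000000 held 5 no-UV sites and 0 UVC sites. These 5 lay at 106917662-106917705, 106945089-106945138, 106972235-106972284, 106999172-106999221 and 106999553-106999602, with scores of 16, 37, 29, 16 and 15. The nearest UVC site was 469729 to 551626 nt away, and none of the 5 lay on a YFP, UVA or iCLIP site. Of the 148 windows with a no-UV site and no UVC site, 137 held a single no-UV site.

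Across chromosomes the number of no-UV sites per 100 UVC sites was 2.91 (2.79 to 3.03). The lowest value was 2.09 on chromosome 11 (1.64 to 2.63) and the highest 3.997 on chromosome X (3.24 to 4.88). Without the dense window, chromosome X had 2.74 (2.12 to 3.49), and the window itself had 71.7. The share of UVC sites on a no-UV site was highest on chromosome 19 at 1.15% (0.822 to 1.57). On chromosome X it was 1.11% (0.738 to 1.60), or 0.564% without that window.

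Sites shared by the UVC and no-UV lists were listed elsewhere at higher shares than the other classes over all scores. Over all sites, 0.348% of UVC and 2.99% of no-UV sites lay on a YFP site, 11.3% and 14.5% on a UVA site, and 6.25% and 6.75% on an iCLIP site. Split by class, YFP held 0.267% of the UVC-only sites, 15.8% of the shared UVC sites and 0.312% of the sites found without UV only. UVA held 11.02%, 55.9% and 6.65% of these classes, and iCLIP 6.18%, 20.1% and 4.47%. Of the sites found without UV only, 1745 (90.6%) were in no other list. Sites found without UV only and UVC-only sites both filled 6 score bands. In all but the lowest, the former overlapped UVA and iCLIP less often. Intervals did not overlap in 2 bands for UVA and in 0 for iCLIP. At scores up to 16 the shares were 6.83% against 6.60% on UVA and 4.23% against 3.94% on iCLIP. Counting a site only when its midpoint lay in a site of the other list gave lower shares in every band, for both lists. At scores up to 16 the UVA share was then 3.14% against 4.25%, with intervals that overlap. Bands with intervals apart again numbered 2 for UVA and 0 for iCLIP. Of the UVC-only sites, 2755 (3.44%) were in both UVA and iCLIP and not in YFP, against 33 (1.71%) of those found without UV only. The UVC-only shares depend on score: with UVC cut to its 2341 highest-scoring sites, the sites without a no-UV counterpart lay on YFP in 4.65%, on UVA in 50.02% and on iCLIP in 24.8%. The shared UVC sites under the same cut lay on YFP in 30.7%, on UVA in 76.9% and on iCLIP in 27.4% (21.5 to 33.9), and the iCLIP interval includes the 24.8%.

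**Figure D4:**
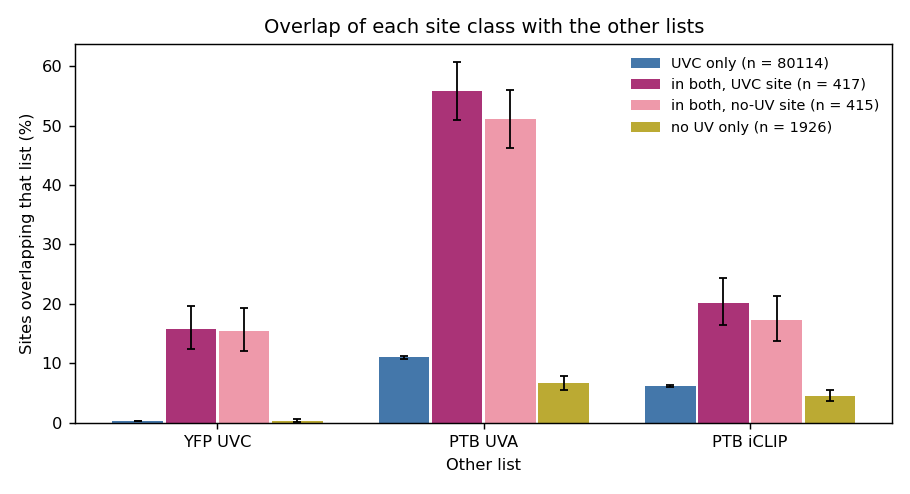
Share of the sites of each class, in percent, that overlap a site of the YFP UVC, PTB UVA and PTB iCLIP lists. Bars start at 0 and error bars are exact 95% intervals for counting error; shared UVC sites reach 55.9% on UVA, against 11.02% for UVC-only and 6.65% for sites found without UV only.

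Score and width went with these shares. Shared UVC sites scored higher, with a median of 80 against 21 for UVC-only sites, and were wider, with a median of 59 nt against 49 nt. Compared within 9 score bands, shared UVC sites lay on UVA more often than UVC-only sites with intervals that did not overlap in 5 bands, for example 30.2% against 9.24% at scores of 21 to 30 and 76.3% against 50.3% above 100 and up to 200. Counting a site only when its midpoint lay in a UVA site left 4 such bands, with width not matched. For iCLIP there were 0 such bands of 9. For YFP there was 1, at scores above 200 and up to 500 (29.1% against 12.3%). By UVC score, the shared sites on YFP were nearly all high scoring: 65 of 66 scored above 100. Of the 233 shared UVC sites up to that score, 1 lay on YFP (0.429%, 0.0109 to 2.37), against 127 of 78861 UVC-only sites (0.161%). By no-UV score this did not hold: 14 of 64 shared no-UV sites on YFP scored above 100. Up to that score, 50 of 398 shared no-UV sites lay on YFP (12.6%, 9.47 to 16.2). Of the sites found without UV only, 6 of 1917 did (0.313%, 0.115 to 0.680).

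Width set the sites found without UV only apart from the rest. Of these, 76.2% were 49 to 51 nt wide and 59.1% (1138 sites) exactly 50 nt. The 49 to 51 nt share was 40.2% of UVC-only sites, 50.1% of shared no-UV sites and 11.99% of shared UVC sites. With UVC cut as above, the UVC-only share was 16.06%. The contrast was smaller with only peaks at or above each list's median score. It was then 54.2% of sites found without UV only, against 37.6% of UVC-only and 37.6% of shared no-UV sites. Within score bands, sites found without UV only were above UVC-only sites in 6 of 6, with intervals that did not overlap. In the other lists the 49 to 51 nt share was 0.370% for YFP, 3.59% for UVA and 3.50% for iCLIP. Of the 5 lists, only UVC and no UV thus had many sites near 50 nt. Sites wider than 51 nt made up 1.40% of those found without UV only, 14.8% of UVC-only sites and 62.6% of shared UVC sites. Within the UVC-only sites, midpoints of sites 49 to 51 nt wide lay in a UVA site in 4.59% and in an iCLIP site in 3.11%. For sites 61 to 100 nt wide the same shares were 25.9% and 11.8%. At matched scores of 21 to 30 they were 4.74% and 3.22% at 49 to 51 nt, against 16.3% and 7.49% at 61 to 100 nt. The low shares were not particular to sites near 50 nt. At the same scores, sites under 40 nt had 3.56% and 2.25%, and those of 52 to 60 nt had 16.5% and 7.05%.

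**Figure D5:**
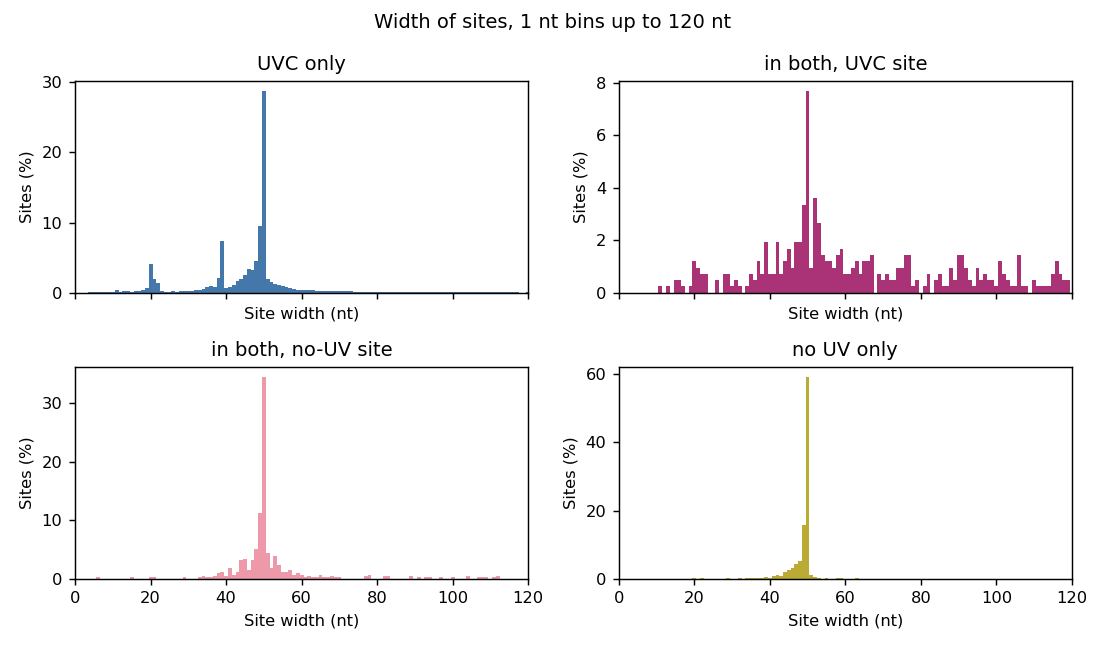
Width of sites in nt, in bins of 1 nt up to 120 nt, as a percentage of the sites of each class; the vertical scale differs between panels. A peak at 50 nt holds 59.1% of the sites found without UV only and 28.7% of the UVC-only sites.

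Many 50-nt sites were deposited as touching peaks. On the plus strand, 407 of 1061 touching no-UV pairs and 6806 of 21550 touching UVC pairs were an 11-nt peak followed by a 39-nt peak. On the minus strand these numbers were 150 of 195 and 2343 of 4070. The 11-nt piece had the lower coordinate in every such no-UV pair on both strands, and in 2342 of the 2343 minus-strand UVC pairs, so it did not change ends with the strand. Plus-strand sites were built from more peaks than minus-strand sites in both lists, at 2.01 against 1.24 peaks per site without UV and 1.74 against 1.18 with UVC. How the touching peaks arose was not tested. Some intervals were also listed repeatedly, 151 without UV (up to 3 times) and 1947 with UVC (up to 21 times, at chr5:140881002-140881012 on the plus strand).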

How the data were processed

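Per the labels' protocols, Halo-tagged protein was isolated with its RNA on beads and libraries followed the iCLIP procedure. Reads were aligned by Bowtie 1.1.2, with hg19 and dm3 as builds, per the submitters' processing notes. What dm3 was for, which program called peaks and how the 2 samples of a group were pooled is not stated there. The deposited peaks carry a score (column 7) and a p-value, none above 0.05. Starts, deposited as counted from 0, were written 1-based. Peaks with a deposited p-value of 0 and a score of 0 were given the score 1000.

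Peaks within 20 nt on a strand were merged, keeping the highest score, and overlap meant at least 1 nt on that strand. Shares carry exact Clopper-Pearson 95% intervals, which treat sites as independent although many lay near one another. Overlap counts were checked with bedtools 2.31.1 (4 of 4 equal), and the merging, overlap and distance steps were tested on simulated data. Windows of 100 kb replaced genes, assigned by site midpoint. Named windows and sites were taken from the 10 windows with the most UVC-only or no-UV sites, those with none of the other kind, and the 10 highest-scoring sites of each class. Not all of these were named. Other sites at the limit, the chromosomes, the score bands and the touching pairs were chosen after their values were seen. The members and lists were chosen with earlier results of these data known. Alternatives changed overlap, merging, score, list length, strand, chromosomes and YFP sites. The scripts ran in Python 3.11.15 (pandas 2.3.3, numpy 2.4.6, scipy 1.17.1), with plots by matplotlib 3.10.9.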

Additional observations from a re-analysis of the deposited data

How the results depend on the processing

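Without replicate names in the lists, no result could be recomputed with a sample left out. No paired analysis was possible because each group is 1 pooled list that carries no replicate numbers. Pyrimidine motifs and transcript classes, both planned, were not run, since they need an hg19 genome and annotation. The share of UVC sites on a no-UV site, 0.518%, was 0.329% when 50% of the site had to be covered, 0.870% within 100 nt, 0.588% without merging and 0.437% without sites on a YFP peak. It was 9.06% when UVC was cut to its 2341 top sites. The share of no-UV sites on a UVC site, 17.7%, was 13.6%, 26.2%, 15.6%, 15.2% and 9.23% under the same settings. Both stayed within their intervals with peaks within 100 nt merged, scores at or above the median, strand ignored, chromosomes 1 to 22 and X, or, an alternative chosen after seeing the data, without the densest window. The site ratio of 34.4 was 54.7 at scores of at least 30 and 31.1 to 35.3 otherwise. The share of no-UV windows with UVC, 92.4%, was 89.9% at or above the median score, 26.4% with UVC cut, and 69.2% in 10 kb windows, also chosen after seeing the data. Of 86 values recomputed for the 18 class, width and distance results, 56 stayed within their intervals and 30 moved, 15 of these with UVC cut and 14 with the score filter.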
